A study of Mus musculus with 24 samples.

Results

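Potassium channel genes were taken as the gene symbols of the count table that begin with Kcn and a further letter, without the choroid plexus genes Kcne2 and Kcnj13, and with a mean count of at least 10 over the libraries. Of 24411 genes, 98 symbols matched and 84 were kept as members, because 12 fell below the mean count and 2 were left out. Just below the limit were Kcnj15 and Kcne3, with mean counts of 3.8 and 4.7, and just above it were Kcnn4 and Kcnk15, with 11.3 and 12.4. The members comprise 15 pore subunits of voltage-gated channels (Kcna, Kcnb, Kcnc, Kcnd), 9 silent modifiers (Kcnf, Kcng, Kcns, Kcnv), 5 Kcnq, 8 Kcnh, 12 inward rectifiers (Kcnj), 11 2-pore-domain (Kcnk), 8 calcium- or sodium-activated genes (Kcnma, Kcnn, Kcnt, Kcnu), 13 auxiliary subunits (Kcnab, Kcne, Kcnip, Kcnmb, Kcnrg) and 3 non-coding or antisense transcripts. Of these, 81 are annotated as protein-coding. Kcnu1 was placed with the calcium- or sodium-activated genes by its symbol, as a channel of the BK family, and not for how it opens.

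Poly(A) RNA of the hippocampus of male and female mice was sequenced in 6 groups, for all of which the labels give the strain C57/B6. In the methods the wildtype cohort is C57Bl/6J, and the rTg4510 mice and their littermates came from the Jackson Laboratory. Old-Nano mice were wildtype, 20 months old at collection, and had received the NF-κB and NLRP3 targeting Nanoligomer cocktail (150 mg/kg, 3 times per week for 1 month), Old mice were untreated at the same age, and Young mice were untreated wildtype mice of 9 months. rTg4510-Nano mice carried the rTg4510 transgene, which drives human P301L tau in the forebrain, and received the same treatment, rTg4510 mice were untreated, and LM mice were littermate controls, all of 3 months at collection. LM libraries bear rTg4510 in the genotype field, so their group was read from the title and the other fields, which name them littermate controls. Each group has 4 libraries, except that columns M2 and M3 of rTg4510 hold the same counts throughout and were taken as 1, which leaves n = 3 there and 23 distinct libraries. The labels name the samples by sex and number (F1, M2 and so on). Totals were 24451593 to 27424344 counts in Old-Nano, 20559259 to 26143009 in Old, 23084584 to 24049944 in Young, 19660389 to 26014106 in rTg4510-Nano, 22520733 to 25885517 in rTg4510 and 17214974 to 26310360 in LM.

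Potassium channels let potassium leave or enter cells along its gradient, and they set the resting potential, end action potentials and shape the interval between them. Voltage-gated channels open on depolarisation, and inward rectifiers pass current best near rest, some of them controlled by G proteins or ATP. Leak current is carried by 2-pore-domain channels, and calcium-activated channels link potassium efflux to calcium entry. In hippocampus most members are neuronal, whereas Kcnj10 and Kcnj16 are known from astrocytes, Kcnj8 from pericytes, and Kcnk13 and Kcnn4 from microglia among other cells.

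Several libraries stood apart before any comparison. Summed over 12 marker genes, choroid plexus RNA was at 4713, 19652 and 6862 CPM (a gene's count relative to its library total, scaled by TMM) in rTg4510 F1, F3 and M2, and at 9.66 to 260.3 CPM in the other 20 libraries. Olfactory bulb and neuroblast markers reached 1164 CPM in Young M4, 323 in Old M1 and 173 in rTg4510-Nano M2. Striatal markers were at 1429 CPM in Old M1, hypothalamic markers at 337 in rTg4510-Nano M2, and pituitary markers at 1806 in rTg4510-Nano M3. Hepatocyte markers summed to 662 CPM in Young F4, 511 in Old F3 and 336 in Young M4, and to 3.59 to 99.0 elsewhere. Hippocampal markers were found in every library, but some sums were low. The 6 dentate granule markers summed to only 13.1 CPM in Young M4, 22.8 in Old M1 and 37.1 in rTg4510 F1. They also gave only 64.0 CPM in rTg4510-Nano F2, 73.8 in rTg4510-Nano M2 and 77.3 in Old-Nano F1, against up to 511 in LM M2. The 7 CA pyramidal markers summed to 212 CPM in rTg4510-Nano M2 and 221 in Old-Nano F1, against up to 845 in LM M2. A higher sum can rest on 1 marker. Of 579 CPM in Young M4, Cpne4 made 438. Fibcd1 was there at 19.1 CPM and Grik4 at 8.21, against 191 to 320 and 91.0 to 117 in the other Young libraries. Wfs1, at 98.3 CPM, lay within their range of 59.5 to 188. Old M1 and rTg4510 F1 also had low Fibcd1 (16.2 and 19.3 CPM) and Grik4 (19.7 and 11.3 CPM), but Wfs1 at 110 and 254 CPM. Results are also given without the 3 libraries that hold markers of other brain regions, namely Young M4, Old M1 and rTg4510-Nano M2. In whole tissue, fewer cells of a type and less RNA per cell cannot be told apart.

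Levels between genes are compared as mean CPM per kb of exon, with n = 23 libraries. The highest member was Kcnab2, the Kvβ2 subunit that binds the cytoplasmic face of Kv1 channels, at 194 CPM per kb. Other high members were the Kv4 partner Kcnip2 (61.4), the astrocyte channel Kcnj10 (60.3) and the axonal channel Kcna1 (53.4). The voltage-gated pore subunits had the highest family median, 16.2 CPM per kb, followed by the inward rectifiers with 8.55, and the Kcnh family had 1.89. The lowest member was Kcnq1, at 0.193 CPM per kb. Kcnab2 ranged over 244 to 1263 CPM and Kcnj10 over 205 to 697 CPM between libraries.

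**Figure D1:**
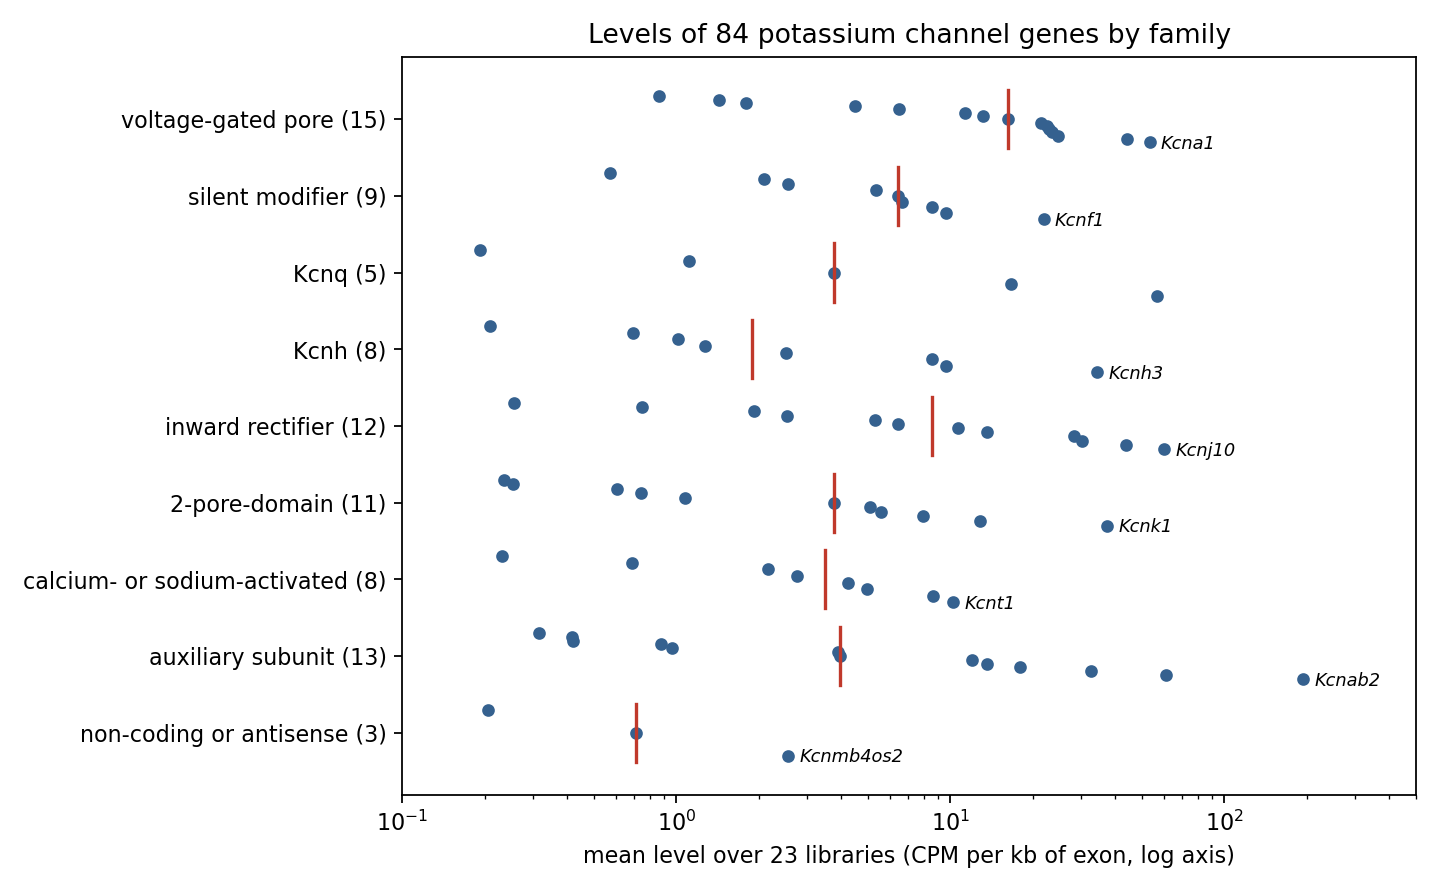
Mean level of each of the 84 members over 23 libraries, in CPM per kb of exon on a log axis, by family. Each point is a gene, the red line is the family median, and the highest member is named in most families. Kcnab2 lies furthest to the right, at 194 CPM per kb.

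Among the voltage-gated pore subunits, the Kv3 genes Kcnc1 (23.5 CPM per kb) and Kcnc2 (13.2), which serve fast spiking, stood beside the Kv1 genes Kcna1, Kcna2 (22.5), Kcna6 (16.2), Kcna4 (6.47) and Kcna3 (4.50). The dendritic A-type channel Kcnd2 was at 24.6 and Kcnd3 at 11.3 CPM per kb. Of the Kv4-binding KChIP genes, Kcnip2 was followed by Kcnip3 (32.6), Kcnip4 (12) and Kcnip1 (3.96). The highest silent modifier, a class that forms no channel alone, was Kcnf1 (21.9). Of the M-current genes, Kcnq5 was at 16.7 and Kcnq3 at 3.75 CPM per kb, and the highest ether-a-go-go gene was Kcnh3 (34.3).

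Of the G protein-gated inward rectifiers, which mediate slow inhibition, Kcnj3 was at 30.3, Kcnj9 at 28.3 and Kcnj6 at 6.42 CPM per kb. The pore subunits of ATP-sensitive channels were at 13.6 (Kcnj11) and 1.91 (Kcnj8), and the glial partner of Kcnj10, Kcnj16, at 10.7. The leak channels Kcnk1 (37.3) and Kcnk2 (12.8) exceeded Kcnk13 (3.75), Kcnk6 (1.08) and Kcnk9 (0.741). The sodium-activated channel Kcnt1 (10.3) and the BK channel Kcnma1 (8.65) led the activated channels, and the calcium-activated Kcnn4 was at 0.231. The antisense transcript Kcnmb4os2 was the highest of the non-coding members (2.56).

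Members that neighbour each other on the genome were Kcnj9 and Kcnj10 on chromosome 1 (11892 bases apart), Kcnj16 and Kcnj2 on chromosome 11 (38196 bases), Kcna3 and Kcna2 on chromosome 3 (63076 bases), and Kcna5, Kcna1 and Kcna6 on chromosome 6 (104985 and 61945 bases). On chromosome 11 Kcnmb1 lies within the span of Kcnip1, on the opposite strand. Exons of 14 members overlap those of another annotated gene on the opposite strand. The shared part is 693 bases for Kcnmb4 and Kcnmb4os2, 165 bases for Kcnd3 and Kcnd3os, 121 bases for Kcnq1 and Kcnq1ot1, 696 bases for Kcnh7 and Gca, and 168 bases for Kcnip4 and 5730480H06Rik. The strand setting of the counting is not given in the sources used here, so reads from these stretches may have been assigned to either partner.

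Promoters from RefSeq (GRCm38.p6) are shown for 3 members only. DESeq2 called Kcnh2 and Kcnq1ot1, and edgeR called Kcnj9 once a library was left out. Kcnj11 and Kcnip4, which DESeq2 also called, are not shown. The windows run from 250 bases before to 50 after an annotated start, 5′ to 3′ on the strand of the gene. For Kcnh2, whose gene spans 24319589 to 24351604, this is a start inside the gene. Its window is therefore not that of the outermost start. Capitals mark GGGCGG, the GC box bound by Sp1-type factors, or its reverse complement CCGCCC. Kcnh2 (chr5:24329542-24329841, minus strand) has 3 matches, and Kcnq1ot1 (chr7:143296498-143296797, minus strand) and Kcnj9 (chr1:172329273-172329572, minus strand) have 0. The G and C content was 74.3%, 53.3% and 52.3%. Windows were found for 61 members, and 51.2% of their 84 windows hold the motif, against 35.7% of all 32851 windows, with median G and C contents of 60.8% and 52.7%. A match is a description of the letters and not a bound site.
Kcnh2: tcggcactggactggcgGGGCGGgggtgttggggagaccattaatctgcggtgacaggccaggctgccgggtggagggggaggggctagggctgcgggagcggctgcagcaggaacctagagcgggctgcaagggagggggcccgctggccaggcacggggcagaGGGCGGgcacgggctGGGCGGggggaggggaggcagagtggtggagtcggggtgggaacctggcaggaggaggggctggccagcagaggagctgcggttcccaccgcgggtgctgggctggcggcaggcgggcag
Kcnq1ot1: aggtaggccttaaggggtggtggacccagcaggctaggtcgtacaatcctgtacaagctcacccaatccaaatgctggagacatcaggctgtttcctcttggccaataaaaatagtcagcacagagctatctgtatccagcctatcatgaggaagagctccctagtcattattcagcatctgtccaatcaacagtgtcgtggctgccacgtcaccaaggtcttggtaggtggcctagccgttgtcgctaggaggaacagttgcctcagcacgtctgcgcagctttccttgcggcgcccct
Kcnj9: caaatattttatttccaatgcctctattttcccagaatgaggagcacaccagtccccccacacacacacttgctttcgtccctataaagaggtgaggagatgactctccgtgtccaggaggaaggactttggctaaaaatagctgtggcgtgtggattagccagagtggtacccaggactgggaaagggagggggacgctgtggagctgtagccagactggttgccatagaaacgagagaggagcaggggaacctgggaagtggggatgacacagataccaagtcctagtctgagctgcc

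Members varied several-fold between libraries. The highest library exceeded the lowest by over 3 times for 63 of the 84 members, and the median ratio was 4.76. In Young M4, 14 members had their highest and 19 their lowest level of the series, and in rTg4510-Nano M2 these counts were 9 and 15. In Old-Nano F1, 14 members had their highest level and none the lowest. Its CA pyramidal markers summed to 221 CPM, against 590 to 672 in the other Old-Nano libraries. Its dentate granule markers summed to 77.3 CPM, against 231 to 441 in those others, and their part in its levels was not tested. The voltage-gated gene Kcna5 was at 14.4 CPM in Old M1, 19.7 in Young M4 and 16.9 in rTg4510-Nano M2, and at most 3.97 CPM in any other library. Kcnip1, a KChIP known from interneurons, had 42.3, 91.3 and 55.8 CPM in these libraries, and at most 27.4 elsewhere. Kcnk15 reached 9.18 CPM in Young M4, was at 1.08 in Old M1 and did not exceed 0.416 in the others, 12 of which had no count. The libraries high for Kcna5 and Kcnip1 are those with markers of other brain regions, and the part of that tissue in these levels was not tested.

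**Figure D2:**
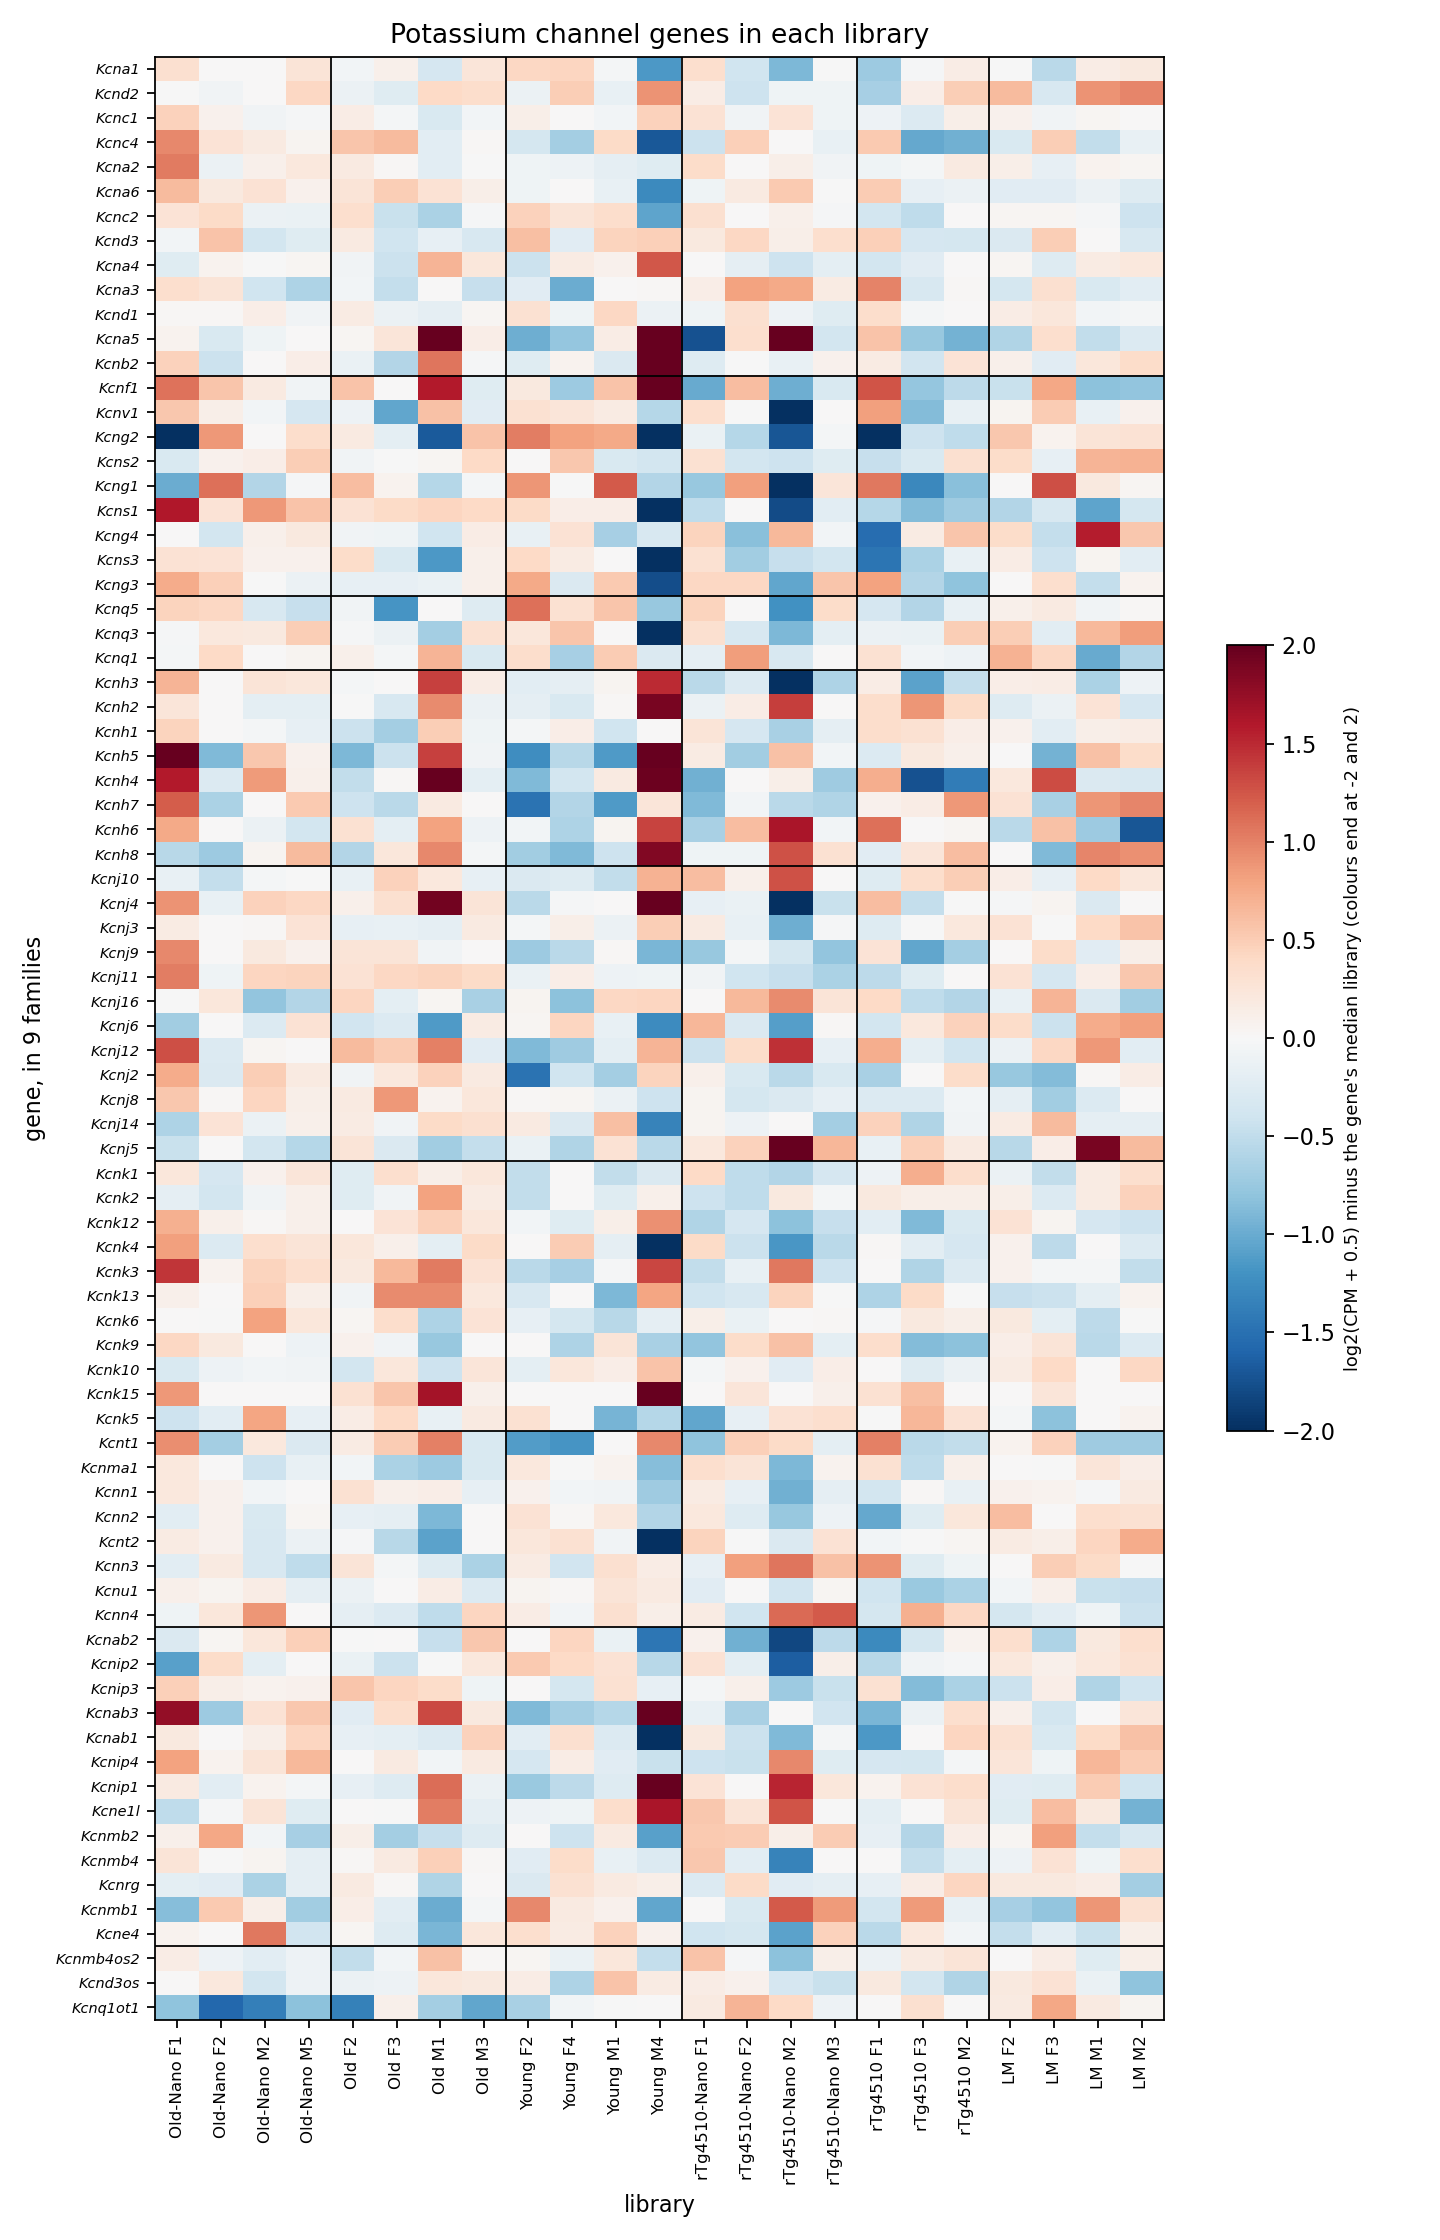
Level of the members shown in each of the 23 libraries, as log2(CPM + 0.5) minus the gene's median library. Rows are genes in 9 families, columns are libraries by group, and red is higher and blue lower than the median. Kcna5 and Kcnip1 are red in Young M4, Old M1 and rTg4510-Nano M2.

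Old and Young mice were compared for a change of channel genes with age. No member passed the edgeR threshold, and the smallest p belonged to Kcnj11, the pore of neuronal ATP-sensitive channels, which was 51.5 ± 2.25 CPM in Old and 38.2 ± 3.33 CPM in Young (SD, n = 4 each) and which DESeq2 called higher. Of the 82 members tested, edgeR called 0 higher and 0 lower at an adjusted p under 0.05, against 0.013% and 0% of all genes. At an unadjusted p under 0.05, 4 members had a positive and 1 a negative fold change (4.88% and 1.22%), against 6.26% and 4.06% of all genes. DESeq2 called 1 higher and 0 lower, against 1.17% and 0.365% of all genes. The median log2 fold change of the members was -0.04 (37 positive, 45 negative), and that of all genes -0.03. Over genes simulated at this depth and spread, the procedure found 45.5% of those changed 2-fold and 88.9% of those changed 4-fold. Groups did not overlap for Kcna6, Kcnj8 and Kcnj11, all higher in Old (3.66% of members), against 4.38% of all genes, and for 0 members lower, against 3.21%.

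Kcnj11 (chromosome 7, 46093953 to 46100764), the Kir6.2 pore of ATP-sensitive channels, had 48.4, 52.5, 53.7 and 51.4 CPM in Old F2, F3, M1 and M3, and 35.8, 43.1, 36.7 and 37.0 CPM in Young F2, F4, M1 and M4. Every Old library was above every Young library. The fit gave a log2 fold change of 0.43 (SE 0.09, unadjusted p = 0.00107, adjusted p = 0.305 from edgeR and 0.00472 from DESeq2). Over all alternatives the value stayed between 0.40 and 0.49. Kcnj8 (Kir6.1), the other pore of this channel class, had 5.49, 9.22, 5.09 and 5.71 CPM in Old and 4.90, 4.96, 4.40 and 3.48 CPM in Young, with a log2 fold change of 0.52 (SE 0.23, unadjusted p = 0.0496, adjusted p = 0.484 from edgeR). Old F3 stood above the other Old libraries. Pericyte and endothelial markers summed to 273 to 459.9 CPM in Old and 286 to 381 in Young, microglial markers to 302 to 618 in Old and 321 to 397 in Young, and astrocyte markers to 2840.4 to 3609 in Old and 2381 to 2729.5 in Young, and their part in these levels was not tested.

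The G protein-gated Kcnj9 (chromosome 1, 172320501 to 172329318) had 139, 139, 111 and 116 CPM in Old and 70.1, 79.4, 118 and 61.2 CPM in Young, with a log2 fold change of 0.61 (SE 0.20, unadjusted p = 0.0150, adjusted p = 0.386 from edgeR). The groups overlapped through Young M1. The leak channel Kcnk1 was at 90.3 ± 15.1 CPM in Old and 67.0 ± 11.4 CPM in Young (SD, n = 4 each), with a log2 fold change of 0.43 (SE 0.16). On the negative side, the A-type channel Kcnd3 was at 90.9 ± 17.0 CPM in Old and 130.0 ± 29.5 CPM in Young, with a log2 fold change of -0.52 (SE 0.20, unadjusted p = 0.0317, adjusted p = 0.450 from edgeR). The M-current gene Kcnq5 had a log2 fold change of -0.74 (SE 0.40), the auxiliary Kcne4 -0.69 (SE 0.44) and Kcnq1ot1, the antisense RNA of the imprinted Kcnq1 domain, -0.50 (SE 0.32). The inward rectifiers had a median of 0.31 over 11 tested genes, the 2-pore-domain genes 0.37 over 11, and the auxiliary subunits -0.28 over 13. The median of the members turned to 0.04 without Young M4. Some of these log2 fold changes moved by over 1.5 times when 1 library was left out: Kcne4 -0.40 without Old M1, Kcnj8 0.29 and Kcnq1ot1 -0.87 without Old F3, Kcnq1ot1 -0.30 without Old F2, and Kcnq5 -0.43 without Young F2.

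Without Old M1 and Young M4, 11 of 81 members had a positive and 6 a negative fold change at an unadjusted p under 0.05, against 8.95% and 5.87% of all genes, and 0 were called at the adjusted threshold. The positive genes then included Kcnj9, Kcnj12, Kcnj2, Kcnj4, Kcnj11, Kcnab3, Kcnh7, Kcnk3, Kcna6 and Kcnk6, and the negative ones were Kcnq5, Kcnma1, Kcnv1, Kcnn2, Kcng2 and Kcnip2. Kcnj9 and Kcnj11 were also under 0.05 with all libraries.

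Old-Nano and Old mice were compared for the effect of treatment. Neither edgeR nor DESeq2 called a member, and the only unadjusted p under 0.05 was that of the Kv4 partner Kcnip4, at 52.9 ± 12.4 CPM in Old-Nano and 40.1 ± 3.38 CPM in Old (SD, n = 4 each). edgeR called 0 of 82 members higher and 0 lower (all genes, 0% and 0%). The unadjusted p was under 0.05 for 1 member with a positive value and 0 with a negative one (1.22% and 0%), where 0.328% and 0.885% of all genes were so. By DESeq2, 0 passed as higher and 0 as lower, where 0% and 0% of all genes did. The median log2 fold change of the members was 0.08 (47 positive, 35 negative), and that of all genes -0.00213. Without Old-Nano F1 the median was -0.02. No member had groups that did not overlap, against 0.236% higher and 0.524% lower of all genes. The Kv4 partner Kcnip4 (chromosome 5, 48389502 to 49524907) had 66.7, 39.7, 45.6 and 59.6 CPM in Old-Nano F1, F2, M2 and M5, and 37.9, 43.0, 36.6 and 43.0 CPM in Old, with a log2 fold change of 0.40 (SE 0.16, unadjusted p = 0.0379, adjusted p = 0.9999 from edgeR). Old-Nano F1, M2 and M5 lay above all Old libraries. The silent modifier Kcns1 had a log2 fold change of 0.55 (SE 0.26), Kcng3 0.50 (SE 0.28) and the BK channel Kcnma1 0.34 (SE 0.18). On the other side were Kcna5 with -1.28 (SE 0.58), whose level was 14.4 CPM in Old M1 alone of this group and 2.59 to 3.04 in the others, the glial Kcnj10 with -0.27 (SE 0.17), Kcnk13 with -0.40 (SE 0.25) and Kcnk2 with -0.35 (SE 0.23). Kcnj11 was at 56.3 ± 18.1 CPM in Old-Nano and 51.5 ± 2.25 CPM in Old (SD, n = 4 each). When Old M1 was left out, 1 of 82 members (Kcnh1) had a positive and 0 a negative value at an unadjusted p under 0.05 in edgeR, against 0.203% and 0.951% of all genes, and Kcnip4 was not under it. The values that 1 left-out library moved by over 1.5 times were Kcna5 -0.25, Kcnk13 -0.24 and Kcnk2 -0.08 without Old M1, Kcng3 0.28, Kcnip4 0.26 and Kcns1 0.22 without Old-Nano F1, Kcnj10 -0.14 and Kcnk13 -0.25 without Old F3, and Kcnj10 -0.18 without Old-Nano F2.

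Old-Nano and Young mice share the Young libraries with the comparison of age. The antisense RNA Kcnq1ot1 was at 9.41 ± 2.60 CPM in Old-Nano and 18.6 ± 3.67 CPM in Young (SD, n = 4 each), and DESeq2, but not edgeR, called it lower. With 83 members tested, 0 were called higher and 0 lower by edgeR, beside 0.00651% and 0% of all genes. Members with an unadjusted p under 0.05 numbered 6 on the positive and 1 on the negative side (7.23% and 1.20%), beside 6.04% and 4.47% of all genes. The DESeq2 calls were 0 higher and 1 lower, beside 1.07% and 0.638% of all genes. The median log2 fold change of the members was 0.03 (48 positive, 35 negative), and that of all genes -0.02. Kcnq1ot1 (chromosome 7, 143203458 to 143296549) had 11.7, 6.62, 7.76 and 11.6 CPM in Old-Nano and 13.1, 20.0, 20.5 and 20.7 CPM in Young, with a log2 fold change of -0.98 (SE 0.23, unadjusted p = 0.00289, adjusted p = 0.379 from edgeR and 0.0168 from DESeq2). Every Old-Nano library was below every Young library, and the Old libraries, at 7.84, 22.4, 12.8 and 9.84 CPM, overlapped both. The groups of Kcna6 and Kcnk6 did not overlap either, both higher in Old-Nano, and together with Kcnq1ot1 they were 2.41% higher and 1.20% lower, against 4.01% and 2.7% of all genes. Kcnip4 had a log2 fold change of 0.68 (SE 0.20), Kcnj9 0.86 (SE 0.28), Kcnk6 0.67 (SE 0.24) and Kcnj11 0.56 (SE 0.21). Kcnrg, a modulator of channel assembly, had -0.67 (SE 0.34) and the leak channel Kcnk10 -0.37 (SE 0.19). Kcnk15 was at 0 in 3 of 4 libraries of each group and no fold is given. Without Young M4, 15 of 82 members had a positive and 1 a negative fold change at an unadjusted p under 0.05, against 8% and 5.05% of all genes, and the median was 0.13. The fold changes moved by over 1.5 times with 1 library left out became Kcnj11 0.32 without Old-Nano F1, Kcnk10 -0.21 without Young M4, and Kcnk6 0.42 without Old-Nano M2.

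**Figure D3:**
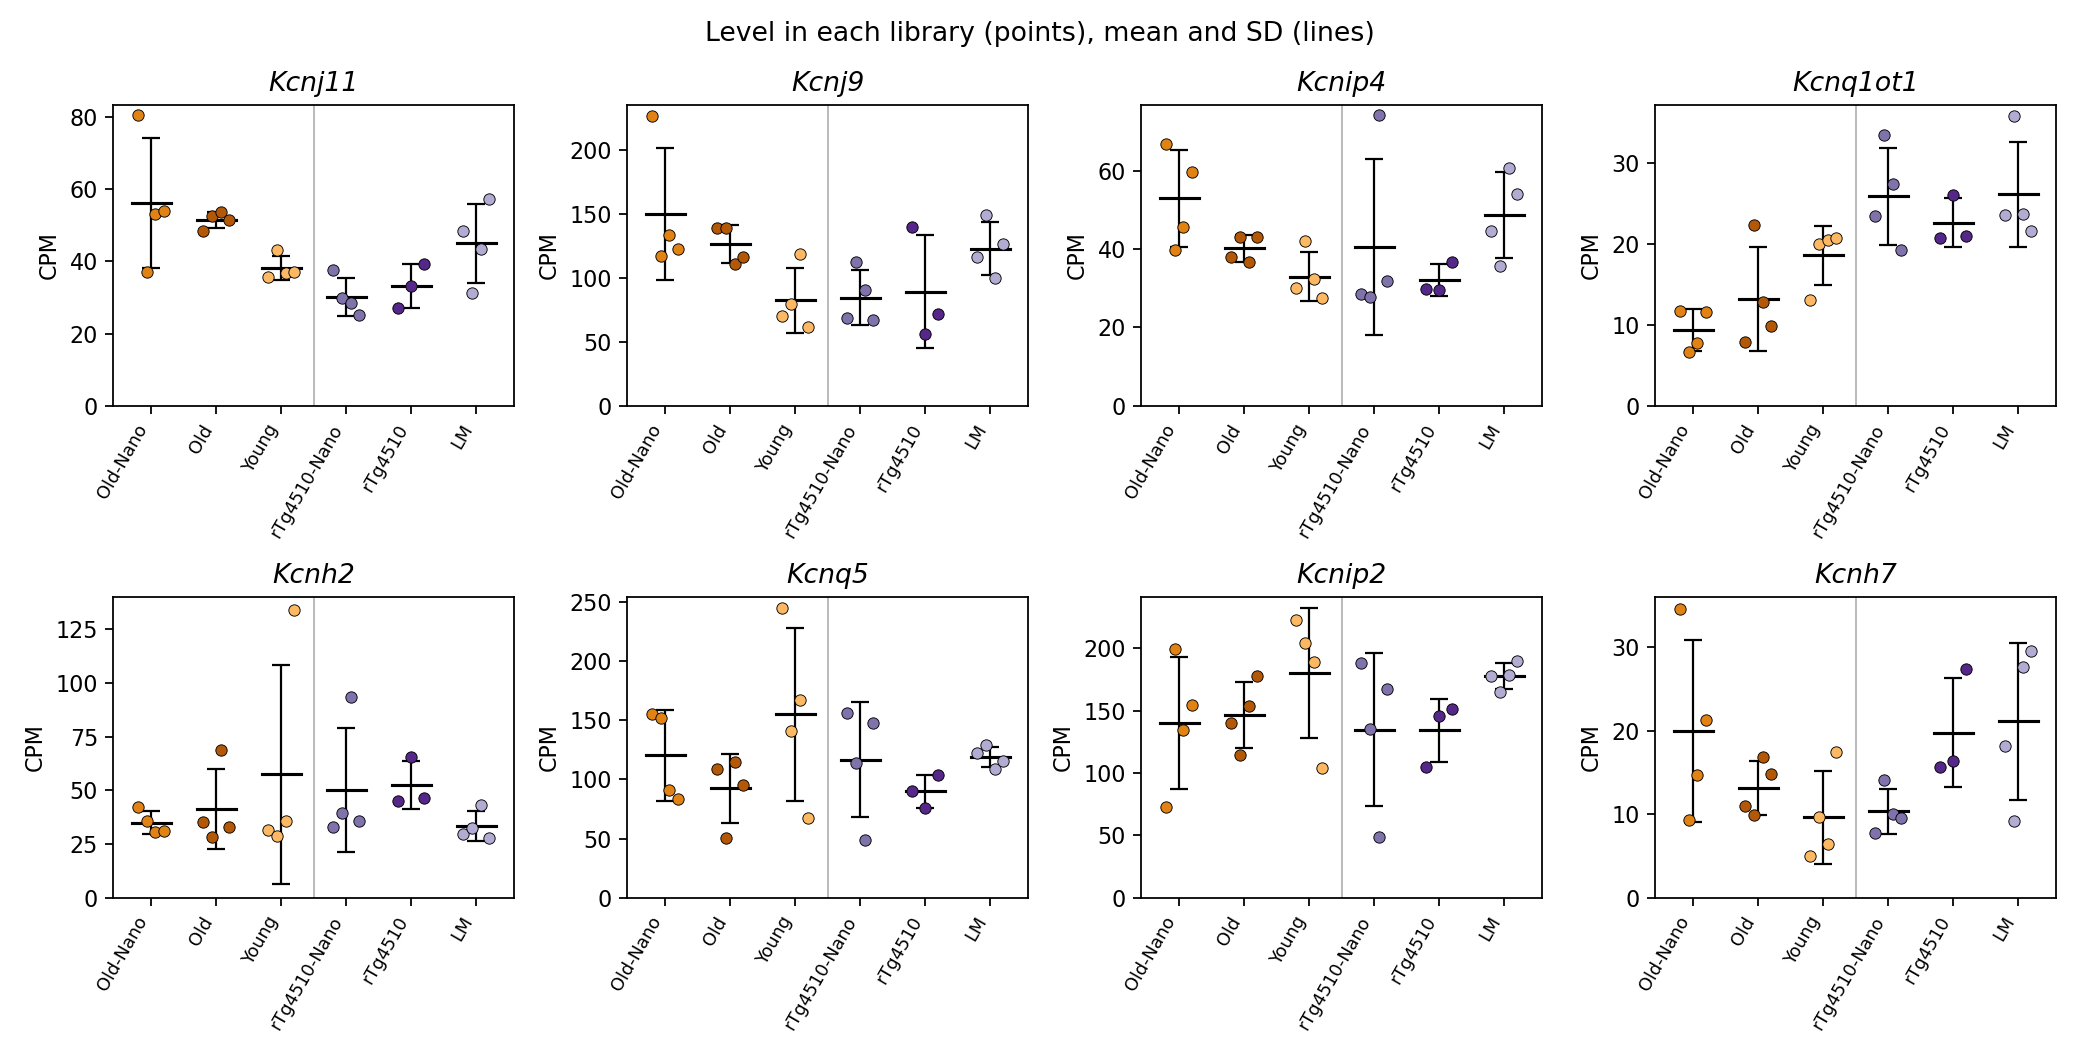
Level in CPM of 8 members in each library (points), with the group mean and SD (lines), for Old-Nano, Old and Young on the left of each panel and rTg4510-Nano, rTg4510 and LM on the right. Kcnj11 is higher in each Old library than in each Young one, and Kcnh2 higher in each rTg4510 library than in each LM one.

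rTg4510 and LM mice were compared for the effect of the tau transgene. DESeq2 called the ERG channel Kcnh2 higher and edgeR called no member, while the M-current gene Kcnq5 and the Kv4 partner Kcnip2 were in each rTg4510 library below every LM library. Of the 82 members tested, edgeR called 0 higher and 0 lower at an adjusted p under 0.05, against 0.837% and 0.0791% of all genes. At an unadjusted p under 0.05, 1 member had a positive and 6 a negative fold change (1.22% and 7.32%), against 8.24% and 5.87% of all genes. DESeq2 called 1 higher and 0 lower, against 3.87% and 1.15% of all genes. The median log2 fold change of the members was -0.17 (23 positive, 59 negative), and that of all genes -0.02. The median of the members was -0.05 without rTg4510 F3, -0.25 without rTg4510 F1 and 0.10 with the choroid plexus score as a covariate. The silent modifiers had the lowest family median, -0.49, with 8 of 9 negative, and 12 of 15 voltage-gated pore genes were negative with a median of -0.11. Groups did not overlap for Kcnh2, higher in rTg4510, and for Kcnq5, Kcnt2, Kcng2 and Kcnip2, lower in rTg4510. These were 1.22% and 4.88% of members, against 7.52% and 6.21% of all genes.

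Kcnh2 (chromosome 5, 24319589 to 24351604), an ERG channel gene, had 45.2, 65.6 and 46.6 CPM in rTg4510 F1, F3 and M2, and 29.7, 32.5, 43.2 and 28.0 CPM in LM F2, F3, M1 and M2. The means were 52.5 ± 11.4 CPM in rTg4510 (SD, n = 3) and 33.3 ± 6.83 CPM in LM (SD, n = 4), with a log2 fold change of 0.63 (SE 0.18, unadjusted p = 0.00752, adjusted p = 0.166 from edgeR and 0.0383 from DESeq2). DESeq2 called it and edgeR did not. With the choroid plexus score as a covariate its log2 value was -0.80. The markers are high in each rTg4510 library and low in each LM one, so transgene and choroid plexus RNA cannot be told apart in this comparison. Outside it the highest Kcnh2 levels were 68.8 CPM in Old M1, 134 in Young M4 and 93.3 in rTg4510-Nano M2.

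Kcnq5 (chromosome 1, 21398403 to 21961942) had 90.0, 76.1 and 103 CPM in rTg4510 and 122, 129, 109 and 115 CPM in LM, with a log2 fold change of -0.42 (SE 0.12, unadjusted p = 0.00805, adjusted p = 0.169 from edgeR). With the choroid plexus score as a covariate its log2 value was 0.34. Kcnip2 (chromosome 19, 45791839 to 45816061) had 105, 146 and 152 CPM in rTg4510 and 178, 165, 178 and 190.1 CPM in LM, with a log2 fold change of -0.43 (SE 0.13, unadjusted p = 0.0112, adjusted p = 0.195 from edgeR). For both genes every rTg4510 library was below every LM library, and the lowest was F3 for Kcnq5 and F1 for Kcnip2. Kcnip4 had 29.8, 29.6 and 36.7 CPM in rTg4510 and 44.7, 35.6, 60.6 and 54.1 CPM in LM, with a log2 fold change of -0.63 (SE 0.19, unadjusted p = 0.00977, adjusted p = 0.183 from edgeR), and overlapped through LM F3. The silent modifier Kcng2 had 4.01, 17.8 and 16.6 CPM in rTg4510 and 34.7, 25.1, 28.6 and 29.1 CPM in LM, with a log2 fold change of -1.23 (SE 0.45, unadjusted p = 0.0273, adjusted p = 0.283 from edgeR). The library with the lowest Kcng2, rTg4510 F1, also had the lowest dentate granule marker sum of the group, whose part was not tested.

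Without rTg4510 F1, edgeR called 2 members, Kcng2 (log2 fold change -0.77) and the G protein-gated Kcnj9, both lower, where 2.16% of all genes were called higher and 0.238% lower. Kcnj9 had 139.6, 56.0 and 72.0 CPM in rTg4510 and 116, 149, 99.5 and 126 CPM in LM, where F1 lay within the LM range. Among the positive values, the Kv1 gene Kcna6 had a log2 fold change of 0.30 (SE 0.17) and Kcnh1 0.20 (SE 0.11). The sodium-activated Kcnt2 had -0.42 (SE 0.17) and the small-conductance Kcnn1 -0.27 (SE 0.12). Leaving out 1 library moved these values by over 1.5 times: Kcna6 0.06, Kcng2 -0.77 and Kcnip2 -0.26 without rTg4510 F1, and Kcnh1 0.13 without LM F3.

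rTg4510-Nano and rTg4510 mice were compared for the effect of treatment in tauopathy. Neither tool called a member, and the ERG gene Kcnh7 was at 10.4 ± 2.70 CPM in rTg4510-Nano (SD, n = 4) and 19.8 ± 6.57 CPM in rTg4510 (SD, n = 3). edgeR called 0 of 83 members higher and 0 lower (all genes, 0% and 0.0456%). The unadjusted p was under 0.05 for 2 members with a positive value and 1 with a negative one (2.41% and 1.20%), where 1.33% and 4.25% of all genes were so. By DESeq2, 0 passed as higher and 0 as lower, where 0.0651% and 1.4% of all genes did. The median log2 fold change of the members was 0.03 (46 positive, 37 negative), and that of all genes 0.00186. Groups did not overlap for Kcnu1, higher in rTg4510-Nano, and Kcnh7, lower (1.20% and 1.20% of members), against 2.68% and 4.34% of all genes. Kcnh7 (chromosome 2, 62693414 to 63184287), another ERG gene, had 7.79, 14.2, 9.98 and 9.52 CPM in rTg4510-Nano F1, F2, M2 and M3, and 15.6, 16.4 and 27.4 CPM in rTg4510 F1, F3 and M2, with a log2 fold change of -0.92 (SE 0.27, unadjusted p = 0.0102, adjusted p = 0.520 from edgeR). In the LM libraries it had 18.1, 9.18, 27.6 and 29.5 CPM. That range holds the rTg4510 values and those of rTg4510-Nano F2, M2 and M3, while rTg4510-Nano F1 lay below it. The BK subunit Kcnmb2 had 4.47, 4.42, 3.27 and 4.44 CPM in rTg4510-Nano and 2.59, 1.80 and 3.31 CPM in rTg4510, with a log2 fold change of 0.70 (SE 0.27). The Kv3 gene Kcnc2 had 0.39 (SE 0.15), and Kcnu1, a channel of the BK family known from sperm, 0.58 (SE 0.26). Kcnj5 had 2.60 (SE 1.22), resting on 13.3 CPM in rTg4510-Nano M2 against 0.679 to 1.12 CPM in the other treated libraries. Kcnh1 had -0.45 (SE 0.20), Kcnk1 -0.56 (SE 0.29) and Kcnk2 -0.31 (SE 0.18). With the choroid plexus score as a covariate, the log2 values of Kcnmb2, Kcnc2 and Kcnk2 were -0.42, -0.65 and 0.17, and the median of the members was -0.54. When rTg4510-Nano M2 was left out, 5 of 83 members (Kcnq5, Kcnc2, Kcns1, Kcnmb2 and Kcnu1) had a positive and 3 (Kcnk2, Kcnh7 and Kcnh2) a negative value at an unadjusted p under 0.05, against 2.04% and 4.49% of all genes. Values moved by over 1.5 times with 1 library left out were Kcnj5 0.46 without rTg4510-Nano M2, and Kcnk1 -0.34 without rTg4510 F3. Because the markers are high in each rTg4510 library and low in each rTg4510-Nano one, treatment and choroid plexus RNA cannot be told apart here.

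rTg4510-Nano and LM mice share the LM libraries with the comparison of the transgene. Neither tool called a member, and more members had a negative than a positive value at an unadjusted p under 0.05, among them the inward rectifiers Kcnj9 and Kcnj11 and the A-type channel Kcnd2. With 83 members tested, 0 were called higher and 0 lower by edgeR, beside 0% and 0.0263% of all genes. Members with an unadjusted p under 0.05 numbered 3 on the positive and 10 on the negative side (3.61% and 12%), beside 4.04% and 3.94% of all genes. The DESeq2 calls were 0 higher and 0 lower, beside 0.132% and 0.23% of all genes. The median log2 fold change of the members was -0.09 (37 positive, 46 negative), and that of all genes 0.01. Dentate granule markers summed to 64.0 to 179 CPM in rTg4510-Nano and 112 to 511 in LM. CA pyramidal markers summed to 212 to 551 CPM in rTg4510-Nano and 430 to 845 in LM, and the part of these cells was not tested. The negative members at this unadjusted threshold included Kcnj9, Kcnj11, Kcns2, Kcng2, Kcnq3, Kcnk12, Kcnn2, Kcnh7 and Kcnd2. Kcnj11 had 37.6, 29.8, 28.4 and 25.3 CPM in rTg4510-Nano and 48.5, 31.2, 43.3 and 57.4 CPM in LM, with a log2 fold change of -0.57 (SE 0.19, unadjusted p = 0.0165, adjusted p = 0.613 from edgeR), and rTg4510 lay at 27.2, 33.3 and 39.4 CPM. The log2 fold change was -0.54 (SE 0.19) for Kcnj9, -1.02 (SE 0.36) for Kcnh7 and -0.73 (SE 0.26) for the A-type channel Kcnd2. Kcna6 had 85.4, 103, 131 and 90.8 CPM in rTg4510-Nano and 77.3, 78.0, 83.5 and 76.2 CPM in LM, with a log2 fold change of 0.38 (SE 0.13, unadjusted p = 0.0187, adjusted p = 0.613 from edgeR). Its groups did not overlap, nor did those of Kcng2, lower in rTg4510-Nano (1.20% and 1.20% of members), against 2.38% and 2.57% of all genes. The Kv1 gene Kcna3, known from microglia and T cells, had 0.64 (SE 0.23), Kcnip1 0.70 (SE 0.37) and Kcnn4 2.06 (SE 0.73), the last at 0.841 ± 0.653 CPM in rTg4510-Nano and 0.197 ± 0.0754 CPM in LM (SD, n = 4 each). Without rTg4510-Nano M2, 1 of 82 members had a positive and 9 a negative fold change at an unadjusted p under 0.05, against 3.86% and 3.78% of all genes. The positive one was Kcna6, and the negative ones were Kcnj9, Kcnk2, Kcnab3, Kcnn2, Kcng2, Kcnh7, Kcnip4, Kcnd2 and Kcnj11. Those that moved by over 1.5 times with 1 library left out became Kcna6 0.24 and Kcnip1 0.23 without rTg4510-Nano M2.

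**Figure D4:**
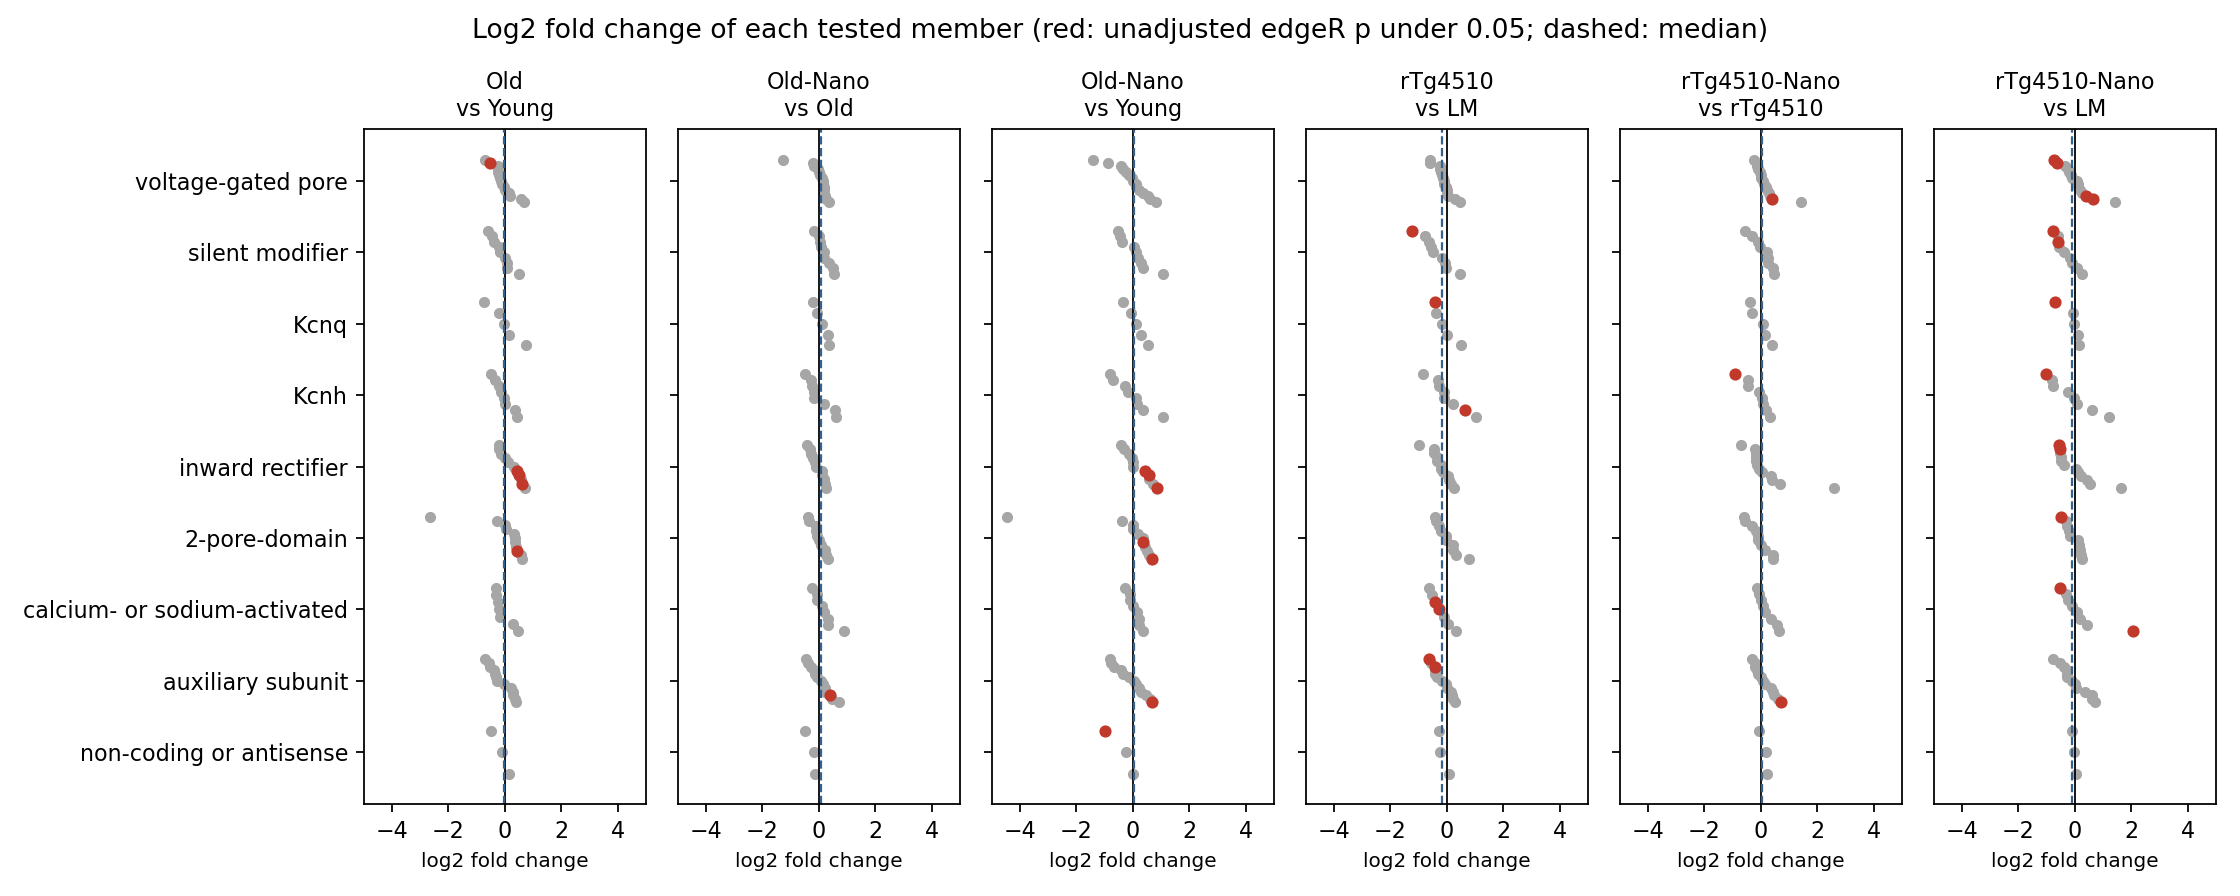
Log2 fold change of each tested member in the 6 comparisons, by family, from edgeR. Red points have an unadjusted p under 0.05, none passed the adjusted threshold, and the dashed line is the median of the members, lowest at -0.17 in rTg4510 against LM. The 2-pore-domain point far to the left in both comparisons with Young is Kcnk15, which is near 0 outside Young M4.

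Whether a member responds differently in the models was tested on the difference itself. Both differences include the rTg4510 libraries, in each of which choroid plexus markers are high. Choroid plexus RNA can therefore not be told apart from the rTg4510 group in either, and no fit with its score was made for them. For the effect of treatment (rTg4510-Nano minus rTg4510, minus Old-Nano minus Old), the counts were as follows. Of the 83 members tested, edgeR called 0 higher and 0 lower at an adjusted p under 0.05, against 0% and 0.143% of all genes. At an unadjusted p under 0.05, 0 members had a positive and 1 a negative fold change (0% and 1.20%), against 1.2% and 2.84% of all genes. DESeq2 called 0 higher and 0 lower, against 0% and 0.546% of all genes. The smallest p was that of Kcnh7, with a log2 difference of -1.53 (SE 0.51) and an adjusted p = 0.709 from edgeR. Kcnh1 had -0.64 (SE 0.35), Kcnq3 -0.63 (SE 0.36) and Kcnk1 -0.50 (SE 0.34), and on the positive side Kcne1l had 1.05 (SE 0.50) and Kcnj16 0.87 (SE 0.46). Kcnj5, with 2.79 (SE 1.37), and Kcna5, with 2.70 (SE 1.33), rest on rTg4510-Nano M2 and, for Kcna5, Old M1. With 1 library left out, values moved by over 1.5 times were Kcna5 1.67 and Kcne1l 0.66 without Old M1, Kcna5 1.07 and Kcnj5 0.63 without rTg4510-Nano M2, Kcnk1 -0.29 without rTg4510 F3, Kcnk1 -0.76 without rTg4510-Nano F1, and Kcnq3 -0.37 without rTg4510 M2.

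For the effect of the model (rTg4510 minus LM, minus Old minus Young), the counts were as follows. edgeR called 0 of 83 members higher and 0 lower (all genes, 0.359% and 0.0457%). The unadjusted p was under 0.05 for 0 members with a positive value and 4 with a negative one (0% and 4.82%), where 5.97% and 3.41% of all genes were so. By DESeq2, 0 passed as higher and 2 as lower, where 1.38% and 0.307% of all genes did. Kcnj11 had a log2 difference of -0.87 (SE 0.23), with an adjusted p = 0.167 from edgeR and 0.0403 from DESeq2. Kcnip4 had -0.89 (SE 0.24), with an adjusted p = 0.178 from edgeR and 0.0437 from DESeq2. Both were thus lower in rTg4510 relative to LM than in Old relative to Young by DESeq2, and not by edgeR. The part of choroid plexus RNA in this was not tested. Kcnj9 had -1.07 (SE 0.39) and the small-conductance calcium-activated gene Kcnn1 -0.52 (SE 0.23), and Kcnh2 1.13 (SE 0.66), Kcne4 0.91 (SE 0.64) and Kcnd3 0.50 (SE 0.36) were positive. The inward rectifiers had a median difference of -0.38, 10 of 12 being negative, beside 0.02 over all genes. With 1 library left out, the differences that moved by over 1.5 times were Kcnd3 0.15 without rTg4510 F1, and Kcnh2 0.28 without Young M4.

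Other genes that act with the channels were listed as 26 partners, 25 of them tested, which include the Kv4 partner Dpp10, the sulfonylurea receptors Abcc8 and Abcc9, and the Kv1-clustering Cntnap2. In the 6 comparisons and both differences, edgeR called 0 of them, and at an unadjusted p under 0.05 there were at most 2 higher and 1 lower in any of them. Abcc8, the receptor that joins Kcnj11, had 27.2, 17.4, 20.3 and 22.5 CPM in rTg4510-Nano and 42.9, 18.0, 39.5 and 45.3 CPM in LM, with a log2 fold change of -0.73 (adjusted p = 0.613 from edgeR), and in Old against Young its value was 0.17 (SE 0.39). Lrrc38, an auxiliary subunit of BK channels, had 1.26, 3.07 and 1.85 CPM in rTg4510 and 1.17, 0.488, 0.582 and 0.421 CPM in LM, with a log2 fold change of 1.57 (adjusted p = 0.180 from edgeR). Cntnap2 had -0.57 in Old against Young (adjusted p = 0.407 from edgeR), and Dlg1, a scaffold of Kv1 channels, 0.47 (adjusted p = 0.424 from edgeR).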

How the data were processed

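Hippocampal libraries were poly(A)-selected, and per the methods of the study the authors trimmed reads with fastp and aligned them with STAR to mm10. The deposited values are whole-number counts per gene symbol, not normalized. For the counting step, the sources used here give neither program nor strand setting. Dates replace the gene name in 27 rows, which stayed in the fits, and of the identical columns rTg4510 M2 and M3 only M2 was used. The table holds 4 columns for each group. The methods describe frozen samples of male and female mice, with more samples per group than the table holds. The legend of the study's sequencing figure gives 4 per group. Each library was treated as 1 mouse.

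Tests used edgeR 4.0.16 and DESeq2 1.42.0 under R 4.3.3. The 6 pairs of groups were each fitted alone, keeping genes whose TMM-normalized count averaged 10 or more, with the robust quasi-likelihood test of edgeR (two-sided) and a Benjamini-Hochberg threshold of 0.05 over all genes. Both differences of effects were fitted over their 4 groups. Standard errors came from the F statistic. CPM were scaled by TMM over the 23 libraries and, where compared between genes, divided by the union of exons in GENCODE release 21 (GRCm38, the same assembly as mm10).

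Members and gene lists were chosen with earlier results of these data known. Genes named with values are those past a threshold of edgeR or DESeq2, the 4 positive and 4 negative with the smallest p per comparison, the highest of each family per length, and a set with known cell types or roles. Further members are named where a count is made of them, after their values were seen. Some members are counted but not reported by name here. As alternatives, the Wald test of DESeq2, its size factors in edgeR, no filter or a minimum of 50, sex as a covariate, 3 groups fitted together, each replicate left out, libraries with markers of other regions left out, a replicate block, a choroid plexus score as a covariate and both identical columns were tried. For the median over members, all but the size factors and the left-out libraries were added after seeing the data. The edgeR procedure was tested on simulated counts in which 200 genes were changed, and its recovery ranged over 28.3% to 64.2% for a 2-fold and 66.0% to 88.9% for a 4-fold change.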

Additional observations from a re-analysis of the deposited data

Results flagged for a closer look

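For the 39 members named in a comparison, the highest or lowest of the 4 libraries of a group was set against the others by Dixon's test in 195 groups, and 32 stood apart, where chance gives about 1 in 20. In 3 of these, all of Kcnk15, the other libraries are at 0, so that any count stands apart, and 29 remain without them. Values of the other 3 libraries follow in parentheses.

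Young M4 stood above the rest of its group for Kcna5 at 19.7 CPM (others 1.03 to 2.85), Kcne1l at 16.1 CPM (others 4.51 to 6.33), Kcnh2 at 134 CPM (others 28.7 to 35.9), Kcnip1 at 91.3 CPM (others 11.3 to 15.9), Kcnj10 at 468 CPM (others 205 to 242) and Kcnk15 at 9.18 CPM (others 0 to 0). Above the rest of its group, Old M1 had Kcna5 at 14.4 CPM (others 2.59 to 3.04), Kcne1l at 10.4 CPM (others 4.21 to 4.85), Kcnh2 at 68.8 CPM (others 28.4 to 35.2) and Kcnip1 at 42.3 CPM (others 15.9 to 17.5). rTg4510-Nano M2 stood above the rest of its group for Kcnh2 at 93.3 CPM (others 32.8 to 39.2), Kcnip1 at 55.8 CPM (others 19.1 to 23.2), Kcnip4 at 74.1 CPM (others 27.8 to 31.8) and Kcnj5 at 13.3 CPM (others 0.679 to 1.12). Above the rest of its group, LM F3 had Kcna3 at 10.5 CPM (others 6.36 to 7.03), Kcnk15 at 0.0887 CPM (others 0 to 0) and Kcnq1ot1 at 35.8 CPM (others 21.6 to 23.7). LM M2 stood below the rest of its group for Kcnc2 at 70.5 CPM (others 93.3 to 97.0) and Kcnrg at 0.301 CPM (others 0.922 to 0.975). Below the rest of its group, rTg4510-Nano M2 had Kcng3 at 0.598 CPM (others 2.50 to 2.80) and Kcnmb2 at 3.27 CPM (others 4.42 to 4.47). Old-Nano F1 stood above the rest of its group for Kcnj9 at 226 CPM (others 117 to 133) and Kcnk15 at 0.416 CPM (others 0 to 0). Below the rest of its group, Young M4 had Kcna6 at 37.1 CPM (others 82.3 to 90.9). Old-Nano M5 stood above the rest of its group for Kcnd2 at 145 CPM (others 103 to 109). Above the rest of its group, Old M3 had Kcng3 at 1.93 CPM (others 1.51 to 1.55). LM M1 stood above the rest of its group for Kcnip1 at 27.4 CPM (others 14.3 to 16.2). Above the rest of its group, Young F4 had Kcnj11 at 43.1 CPM (others 35.8 to 37.0). Old F3 stood above the rest of its group for Kcnj8 at 9.22 CPM (others 5.09 to 5.71). Below the rest of its group, Young F2 had Kcnq1ot1 at 13.1 CPM (others 20.0 to 20.7). Old-Nano M2 stood below the rest of its group for Kcnrg at 0.333 CPM (others 0.602 to 0.636). Above the rest of its group, rTg4510-Nano F2 had Kcnrg at 1.18 CPM (others 0.559 to 0.634).

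The effect of the model (rTg4510 minus LM, minus Old minus Young) differed in DESeq2 for Kcnip4, with a log2 difference of -0.90, and for Kcnj11, with -0.88, and in edgeR for neither. Choroid plexus RNA cannot be told apart from the rTg4510 group in this difference.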

How the results depend on the processing

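With edgeR 0 members were called in each of the 6 comparisons and both differences, and this held in 90 of 95 alternative counts for the comparisons and 37 of 40 for the differences. DESeq2 called 1 in Old against Young (Kcnj11), 1 in Old-Nano against Young (Kcnq1ot1), 1 in rTg4510 against LM (Kcnh2) and 2 in the difference of the model effects (Kcnip4 and Kcnj11). Leaving out 1 library gave 0 to 2 calls in rTg4510 against LM (2 without rTg4510 F1, Kcnj9 and Kcng2) and 0 to 1 in the difference of the model effects (Kcnj9 without rTg4510 F1, beside 0.62% higher and 0.0588% lower of all genes, and Kcnj11 without LM F3, beside 0.222% higher and 0.0326% lower). The replicate block gave 3 calls in rTg4510 against LM (Kcnj9, Kcnc4 and Kcnh2), beside 1.75% higher and 0.232% lower of all genes. It gave 0 in the other comparisons where it could be fitted. The fit for rTg4510 against LM used only the 4 libraries that share a number, which leaves little from which to estimate spread. Deviations of libraries with the same number correlated at -0.32 to 0.52 over the 6 comparisons, and those of F2 at 0.23 to 0.52 in the 4 where it is shared. At most 2 numbers are shared and no source says that a number marks a litter or batch, so the libraries were not taken as paired. No paired analysis was possible for Old-Nano because its groups share 1 number with Old and Young. Of 1066 alternative values of the named log2 fold changes, 5 turned sign, all with the choroid plexus score as a covariate: Kcnh2 -0.80 and Kcnq5 0.34 in rTg4510 against LM, and Kcnc2 -0.65, Kcnk2 0.17 and Kcnmb2 -0.42 in rTg4510-Nano against rTg4510. The score is far higher in each rTg4510 library than in any other, so score and group cannot be told apart in that fit. The median over members moved by more than the spread between replicates to 0.04 in Old against Young (with sex as a covariate), 0.04 in Old against Young (without Young M4), 0.11 in Old against Young (under the block), -0.02 in Old-Nano against Old (without Old-Nano F1), 0.13 in Old-Nano against Young (without Young M4), 0.13 in Old-Nano against Young (without the libraries with markers of other brain regions), -0.05 in rTg4510 against LM (without rTg4510 F3), 0.10 in rTg4510 against LM (with the choroid plexus score as a covariate), -0.54 in rTg4510-Nano against rTg4510 (with the choroid plexus score as a covariate) and -0.26 in rTg4510-Nano against LM (under the block). The causes of these changes were not tested. Of simulated 2-fold changes 28.3% to 64.2% were found, so a change of this size could be missed, and members near the count minimum, such as Kcnn4 and Kcnk15, rest on few counts.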
